A study of Mus musculus with 8 samples.

Results

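The regions described here are the accessible sites listed for Hepa-1c1c7 cells treated with 1 µM potassium chromate against untreated cells. They were taken as every region of the 1 µM list, with no selection on a measured value, which gave 15894 of the 41425 regions in the 3 lists of the series. ATAC-seq, which cuts and tags open DNA with the Tn5 transposase, was run on this established mouse hepatoma line after 72 h with chromate at 0 µM (the control), 0.1 µM, 0.5 µM or 1 µM. Each dose had 2 libraries, 8 in all, and the labels do not say that they were separate cultures. All libraries came from the same line in the same medium and differed by dose, and each label names a transposition kit number of its own. The 1 µM libraries carry the prefix N503 in their labels and all others N502. That prefix and the dose of 1 µM cannot be told apart. The title of the series names chromium, chromatin accessibility and CTCF sites in promoters, which is the question the lists bear on.

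Each treated dose has a single list, named for the dose and the control together, so no value below has an error between replicates and no test between doses was made. No source used here says whether a listed region had become more open than in the control, and a gene without a region is not shown to be closed. The deposited score of a region is used here only as its rank percentile within the 1 µM list, where 100 is the highest score and tied regions share a value. Ranks of wide regions differed more often between the 1 and 0.5 µM lists and are read with caution. Whether the dose or the score itself lay behind this was not tested. Of 472 regions of 1000 bp or more that overlapped exactly 1 region of the 0.5 µM list, and were its only overlap, 17.4% differed from it by over 50 percentile points, against 10.3% of 2891 such regions from 500 to under 1000 bp and 8.83% of 4698 under 500 bp. The width is therefore given for named regions of 1000 bp or more at the starts of group members. Intervals given with shares are 95% Wilson intervals and cover counting error only. All 3 lists share the control libraries, so values at 0.5 and 0.1 µM are set beside those at 1 µM without any claim on what the doses have in common.

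Active promoters are largely free of nucleosomes around the transcription start, and Tn5 reaches them easily. Many promoters lie in CpG islands, stretches rich in the dinucleotide CG, which are accessible in most cell types, while promoters of tissue-specific genes often have few CpGs. Chromate enters cells through anion transporters and is reduced inside them by ascorbate, glutathione and other thiols, which gives DNA adducts, crosslinks and oxidative stress. CTCF binds a long motif and, with the cohesin ring, holds chromatin loops and boundaries.

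Promoters that lay wholly inside a 1 µM region and that hold a motif of a stress-related factor are shown first, since they let a reader see what kind of DNA the list covers. Each sequence is the 250 bases before the RefSeq start (GRCm38.p6, mm10 coordinates), read in the direction of the gene, with the motif in capitals. Positions count back from the base before the start as -1, and give the first capital letter. The metal response element of MTF1 was searched as TGCACNC or TGCGCNC, the antioxidant response element of NRF2 as TGACNNNGC, the heat shock element of HSF1 as GAANNTTC and the cAMP response element as TGACGTCA, all on both strands. The antioxidant and cAMP elements can overlap, since both begin with TGAC, and overlaps were not removed. Mt1 encodes a metallothionein, a small metal-binding protein. Gclm encodes the modifier subunit of the enzyme that limits glutathione synthesis. Txnrd1 encodes thioredoxin reductase, Nfe2l2 encodes NRF2 itself, Dnaja1 a heat shock co-chaperone and Plk2 a kinase induced by p53.
Mt1: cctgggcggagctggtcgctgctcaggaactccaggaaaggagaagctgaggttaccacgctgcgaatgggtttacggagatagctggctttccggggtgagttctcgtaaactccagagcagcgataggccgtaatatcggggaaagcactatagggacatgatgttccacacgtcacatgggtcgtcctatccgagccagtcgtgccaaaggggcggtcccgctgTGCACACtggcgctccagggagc
Gclm: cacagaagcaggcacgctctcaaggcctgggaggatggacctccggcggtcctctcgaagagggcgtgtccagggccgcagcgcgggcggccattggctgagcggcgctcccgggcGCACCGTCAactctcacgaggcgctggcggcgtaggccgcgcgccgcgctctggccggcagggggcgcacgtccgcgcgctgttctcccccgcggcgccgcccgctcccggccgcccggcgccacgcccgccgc
Txnrd1: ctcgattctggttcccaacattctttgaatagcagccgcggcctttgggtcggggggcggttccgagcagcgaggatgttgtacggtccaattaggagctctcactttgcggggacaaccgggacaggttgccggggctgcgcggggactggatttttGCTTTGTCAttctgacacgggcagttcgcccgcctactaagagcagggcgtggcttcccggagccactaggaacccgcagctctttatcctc
Nfe2l2: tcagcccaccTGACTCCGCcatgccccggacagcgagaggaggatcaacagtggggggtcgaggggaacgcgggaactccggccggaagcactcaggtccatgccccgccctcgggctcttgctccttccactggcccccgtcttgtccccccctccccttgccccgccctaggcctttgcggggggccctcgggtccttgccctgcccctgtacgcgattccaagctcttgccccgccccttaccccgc
Dnaja1: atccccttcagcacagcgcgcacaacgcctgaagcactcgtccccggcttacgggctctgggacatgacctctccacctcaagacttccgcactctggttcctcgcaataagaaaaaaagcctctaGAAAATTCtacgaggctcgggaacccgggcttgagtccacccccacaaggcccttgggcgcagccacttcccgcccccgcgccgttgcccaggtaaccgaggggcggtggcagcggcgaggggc
Plk2: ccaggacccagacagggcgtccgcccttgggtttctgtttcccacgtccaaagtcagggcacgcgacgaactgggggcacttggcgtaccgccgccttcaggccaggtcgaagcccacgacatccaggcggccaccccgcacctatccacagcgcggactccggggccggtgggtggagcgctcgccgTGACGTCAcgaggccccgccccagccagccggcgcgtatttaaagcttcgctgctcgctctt

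The Mt1 window is chr8:94178839-94179088 on the plus strand, inside the region chr8:94178834-94179312, and holds its metal response element at -23. Counting the 50 bases after the start as well, that promoter held 3 such elements. The Gclm window (chr3:122245307-122245556, plus strand) has the antioxidant element at -134, and the Txnrd1 window (chr10:82858956-82859205, plus strand) at -92. Nfe2l2 (chr2:75704664-75704913, minus strand) has it at -240. The Dnaja1 window (chr4:40722218-40722467, plus strand) has the heat shock element at -124, and the Plk2 window (chr13:110394794-110395043, plus strand) the cAMP element at -62. Short motifs are common: over all 21045 promoters of protein-coding genes, 29.6% held the metal, 13% the antioxidant, 7.27% the heat shock and 2.26% the cAMP element. A match is a description of the letters and not a sign of binding.

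CTCF matches, searched by the factor's name as its core motif on both strands, were found in 119 of the 21045 promoters (0.565%). Of these 119, 31 had a 1 µM region on them (26.1%), beside 20.6% of all promoters. The motif was thus in 0.715% of promoters with a region (0.504 to 1.01%, n = 4338) and in 0.527% of those without one, and the second value lies inside the interval of the first. By the number of CpGs in the promoter, the match was in 1.57% with a region against 0.210% without one at 0 to 4 CpGs. Only 2.18% of the 5838 promoters of that class had a region, so its 1.57% rests on very few promoters. The match was in 0.612% against 0.673% at 5 to 13, 0.844% against 0.839% at 14 to 25 and 0.542% against 0.541% at 26 or more. The following 3 promoters, each wholly inside a 1 µM region, show the motif in capitals. Calr encodes calreticulin, a chaperone of the endoplasmic reticulum, Nsfl1c encodes the p47 cofactor of the p97 ATPase, and Lsm11 a part of the U7 particle that matures histone mRNA.
Calr: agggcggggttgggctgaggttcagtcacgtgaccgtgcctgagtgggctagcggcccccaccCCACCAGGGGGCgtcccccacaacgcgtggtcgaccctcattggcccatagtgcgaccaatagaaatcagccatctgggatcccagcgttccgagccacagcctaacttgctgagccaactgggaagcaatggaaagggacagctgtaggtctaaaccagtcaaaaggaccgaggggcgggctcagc
Nsfl1c: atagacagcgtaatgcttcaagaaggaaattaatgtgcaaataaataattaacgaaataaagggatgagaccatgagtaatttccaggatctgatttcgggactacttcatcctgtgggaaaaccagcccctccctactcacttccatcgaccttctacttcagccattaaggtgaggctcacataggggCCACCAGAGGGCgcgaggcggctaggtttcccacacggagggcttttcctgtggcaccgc
Lsm11: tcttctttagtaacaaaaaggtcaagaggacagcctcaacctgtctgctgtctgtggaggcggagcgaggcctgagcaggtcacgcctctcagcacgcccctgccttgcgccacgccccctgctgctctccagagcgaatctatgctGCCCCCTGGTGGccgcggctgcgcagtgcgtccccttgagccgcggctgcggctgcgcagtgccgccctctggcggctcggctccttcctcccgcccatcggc

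The Calr window is chr8:84846932-84847181 on the minus strand with the motif at -187 and a region at percentile 51.1. Nsfl1c (chr2:151493932-151494181, plus strand) has it at -60, in a region of 842 bp at percentile 94.7. Lsm11 (chr11:45944936-45945185, minus strand) has it at -103, in a region of 481 bp at percentile 67.1. Other promoters with a CTCF match that lay wholly inside a 1 µM region stood lower, such as Ndufaf4 at 31.6 and Noc3l at 39.1, or higher, such as Gzf1 at 99.5 in a region of 1531 bp.

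Most 1 µM regions were short and lay away from promoters. The median width was 353 bp, 73.7% were under 500 bp and 4.17% (663 regions) reached 1000 bp or more. In all the list covered 6.91 Mb, and the median gap between neighbours was 39.1 kb. By the midpoint of each region, 5046 (31.7%, 31.0 to 32.5%) lay within 1 kb of the start of a protein-coding gene. A further 4736 (29.8%) lay inside a gene and 5993 (37.7%) between genes, and 119 (0.749%) lay at the 3' end of a gene. At 0.5 µM 36.7% and at 0.1 µM 30.5% of the list lay at starts.

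Regions at starts were wider and ranked higher than the others within the 1 µM list. Their median width was 434 bp (quartiles 294 to 674), against 331 bp inside genes and 330 bp between genes. Their median percentile was 57.4, against 47.4 for both other places. Among the highest-scoring 10% of the list 47.0% lay at starts, and the share was lower in each lower band, down to 26.9% in the lowest 25%. The highest 1% had a median width of 1005 bp, so that width and score rose together there, and their separate parts were not tested.

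Around the start itself the regions were centred just upstream. For 4149 regions the nearest start within 1 kb had a known strand. Of these, 58.4% (56.9 to 59.9%) had their midpoint upstream, with a median of -30 bp and quartiles of -128 and 79 bp. The region covered the start base in 75.0% of cases, and 46.9% of midpoints lay within 100 bp of it. The upstream share was 59.8% at 0.5 µM and 57.4% at 0.1 µM.

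**Figure D1:**
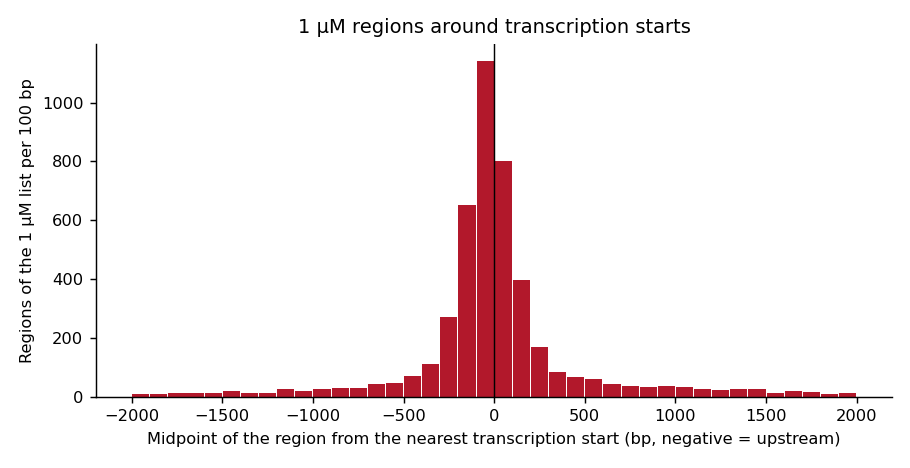
Number of 1 µM regions by the distance of the midpoint from the nearest transcription start (x axis, bp in bins of 100, negative is upstream; y axis, regions per bin). The counts peak in the bin just before the start, and 58.4% of the 4149 midpoints within 1 kb lie upstream.

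Of 21631 protein-coding genes, 5031 (23.3%) had a 1 µM region at a start. The same share was 19.0% for the 0.5 µM list and 19.8% for the 0.1 µM list. Where the RefSeq promoter table gave the start, 23.8% of 17274 genes had one. For the 4357 genes without an entry both ends of the gene were used, and 21.0% had one. Widening the search to the whole gene and 10 kb either side gave 36.7%. These percentages are the background for the gene groups below. Over all genes with a region the best one had a median percentile of 60.3, and 584 genes had 2 or more regions at a start.

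CpG content went with the presence of a region. Promoters with a 1 µM region had a median of 23 CpGs in 300 bases and 62.0% GC, against 9 CpGs and 54.7% GC without one. By gene, 2.23% of 4614 genes with at most 4 CpGs in their richest promoter had a region, 16.2% with 5 to 13, 36.4% with 14 to 25 and 39.3% with 26 or more. Gene groups differ in CpG content, so their shares are given below with the median CpG count of their promoters, over the members with a promoter entry. The part of CpG content in each share was not tested.

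Pairs of genes that start back to back within 1 kb and run apart had regions more often than other genes. Of 748 such pairs, 357 (47.7%) had a 1 µM region at or between their starts. By gene, 51.4% of 1483 genes in such pairs had a region at a start, against 21.2% of 15791 other genes. Partners start within 1 kb of each other, so a region at either start often counts for both genes. The parts of this rule and of CpG content in the difference between pairs and other genes were not tested. Hspd1 and Hspe1, which encode the mitochondrial chaperonin and its co-chaperonin, are one such pair and share the region chr1:55087352-55088508. Promoters of long noncoding RNAs had a region in 696 of 11574 cases (6.01%).

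The gap between promoters with and without a region was widest for the SP and ETS motifs. The SP and KLF box GGGCGG was in 70.2% (68.8 to 71.5%) of promoters with a region and 40.6% of those without one (46.7% of all). The ETS and GABP motif CCGGAAG was in 23.5% (22.3 to 24.8%) against 8.62% (11.7% of all). The palindromic NRF1 motif was in 14.8% against 7.05% (8.66% of all), and the cAMP element in 4.13% against 1.77%. YY1's AAGATGGCG was in 3.43% against 1.42% (1.84% of all), and NF-Y's CCAAT in 45.5% against 36.7% (38.5% of all).

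CpG content moved with some of these differences. Within promoters of 26 or more CpGs the SP box was in 85.6% with a region and 85.8% without, so the difference was not seen there. The ETS motif kept its direction in that class, with 27.6% against 14.6%. The metal response element was more frequent with a region over all promoters (36.4% against 27.8%) and less frequent within that class (47.7% against 54.8%) and within that of 14 to 25 CpGs (32.1% against 38.0%). The antioxidant element was in 16.1% against 12.2% over all promoters. It was in 19.1% against 14.6% at 26 or more CpGs and in 14.9% against 14.3% at 14 to 25.

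Motifs of liver factors and of AP-1 were less frequent in promoters with a region when all promoters were pooled, and the order turned within several classes of CpG content. The HNF4A motif CAAAGTCCA was in 0.184% (8 promoters, 0.0935 to 0.364%) against 0.527% (0.456% of all), C/EBP's TTGCNNAA in 7.81% against 10.9% (10.3% of all) and FOXA's TGTTTAC in 2.77% against 3.10% (3.03% of all), where the second value lies inside the interval of the first (2.32 to 3.30%). The AP-1 site, TGACTCA or TGAGTCA, was in 3.87% against 4.90% (4.69% of all) and the heat shock element in 5.90% against 7.63%. The AP-1 site was more frequent with a region in each of the 4 CpG classes, from 14.2% against 7.44% at 0 to 4 CpGs to 2.17% against 1.97% at 26 or more. The C/EBP and FOXA motifs were more frequent with a region in the 3 classes of 5 CpGs or more, with 4.33% against 3.09% and 2.29% against 1.37% in the richest. The HNF4A motif was more frequent with a region at 5 to 13 CpGs (0.612% against 0.553%) and less frequent in the other classes. The heat shock element was more frequent with a region at 5 to 13 CpGs (11% against 7.33%) and at 26 or more (3.97% against 3.18%). The AHR element TNGCGTG was in 9.04% against 5.24% (6.02% of all), and the E-box CACGTG in 10.3% against 7.30% (7.91% of all). At 14 to 25 CpGs both were slightly less frequent with a region (8.55% against 8.93%, and 10.7% against 11%), as was the E-box at 26 or more (11.2% against 12.4%). All motifs were read on both strands, and overlapping matches of different motifs were all counted.

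**Figure D2:**
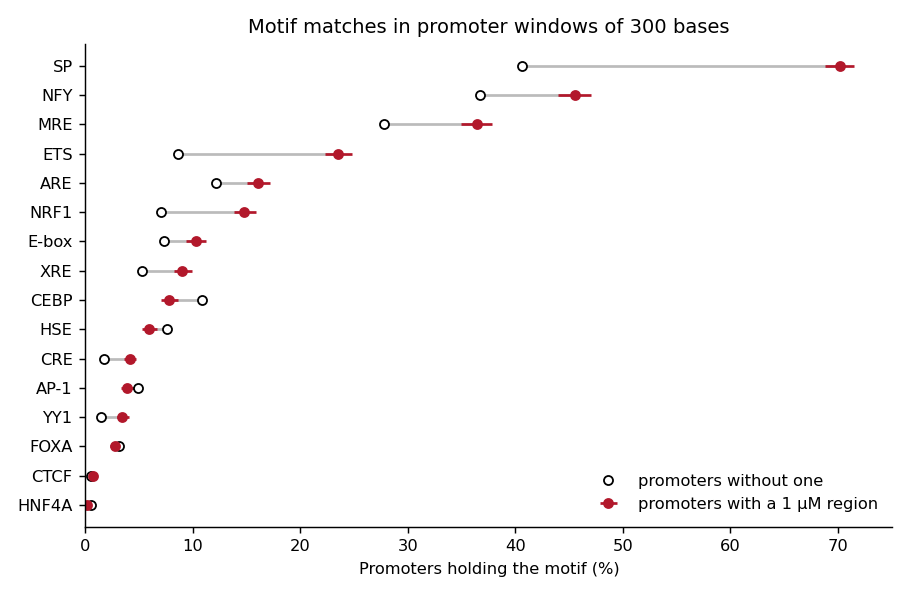
Share of promoters (x axis, percent of windows of 300 bases) that hold each of 16 motifs (y axis), for the 4338 promoters with a 1 µM region (filled, bars are 95% Wilson intervals for counting error) and the promoters without one (open). SP and ETS show the widest gaps, 70.2 against 40.6% and 23.5 against 8.62%, and CTCF lies at 0.715 against 0.527%.

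The 1 µM regions were dense on chromosome 15, with 20.4 per Mb, while the rest of the genome had 5.45 per Mb, a 3.74-fold lower density. This chromosome held 13.3% of the list. Only 13.4% of its regions lay at starts, the lowest share of any chromosome, and its regions had a median percentile of 43.4. Chromosome 15 held 25.2% of the highest-scoring 1% of the list, 14.0% of the highest 10% and 17.7% of the lowest 25%. Its genes did not stand out in the same measure: 33.1% had a region at a start, against 37.5% on chromosome 1, 33.3% on chromosome 18 and 10.2% on chromosome 14. The X chromosome had 1.33 regions per Mb, and 55.1% of its regions lay at starts, the highest share. At 0.5 and 0.1 µM chromosome 15 held 16.3 and 18.1 regions per Mb.

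**Figure D3:**
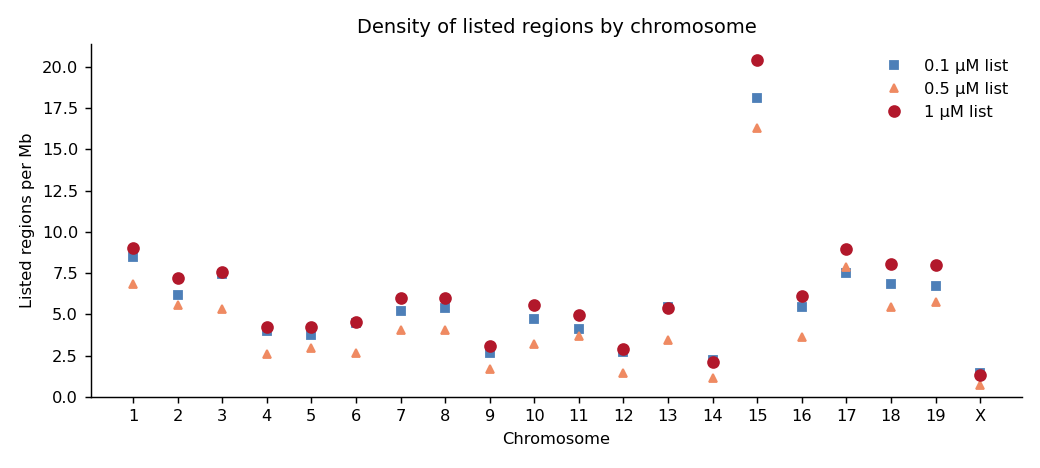
Regions per Mb (y axis) on each chromosome (x axis) in the lists of 1 µM (circles), 0.5 µM (triangles) and 0.1 µM (squares). Chromosome 15 has the highest value in each list, 20.4 per Mb at 1 µM, and the X chromosome the lowest, 1.33 per Mb at 1 µM.

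The list also held dense stretches, here runs of at least 5 regions with gaps of at most 10 kb. There were 154, with 986 regions (6.20% of the list), and 37 of them (24.0%) lay on chromosome 15. The longest run was chr1:83111755-83170550, with 24 regions in 58.8 kb touching Ccl20, a chemokine gene, and Daw1, a gene of dynein assembly in cilia. The 0.5 µM list had 25 regions in that stretch and the 0.1 µM list 9. Of its 24 regions 1 lay at a start, and their median percentile was 13.2, so they were weak by score.

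A stretch of 22 regions in 34.2 kb at chr15:3269526-3303769 touched Selenop, which encodes the selenium-carrying plasma protein of the liver, and Ccdc152 beside it. The 0.5 µM list had 4 regions there and the 0.1 µM list 7. The stretch at chr17:7230129-7274040 had 18 regions, all inside Rps6ka2, which encodes a kinase of the ribosomal S6 kinase family, with 17 at 0.5 µM and 4 at 0.1 µM. In both stretches the 1 µM count was the highest of the lists. All stretches were picked by their 1 µM regions, which favours this order, and no replicate list gives the spread of such counts. Over the whole of Rps6ka2 the order was different, with 21 regions at 1 µM and 24 at 0.5 µM.

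The next stretch, chr4:62496043-62525466, had 15 regions over Bspry, Hdhd3, Alad, Pole3 and 4933430I17Rik, with 14 and 12 at 0.5 and 0.1 µM. Alad encodes the zinc enzyme that makes porphobilinogen in haem synthesis. A stretch of 14 lay in Dlgap1 (chr17:70702042-70753851), with 11 and 9 in the other lists. Stretches of 11 regions lay at Trpm8, a cold-sensing channel gene (chr1:88289988-88310755, with 8 and 2), and over Cd63, Rdh5, Bloc1s1 and Itga7 (chr10:128909375-128950582, with 6 and 7). Another of 11 lay at Basp1 (chr15:25408667-25460219, with 6 and 6). The stretches with 10 regions were ordered by length, and those named by the rule are one at chr15:38452637-38474160 that touches no protein-coding gene and one at the acetyltransferase gene Kat2b (chr17:53566082-53587563). They had 8 and 6, and 8 and 10, at 0.5 and 0.1 µM.

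The genes with most 1 µM regions inside were often long genes of chromosome 15. In all 4617 genes had a region inside, 44 had 10 or more, and 21 of those 44 lay on chromosome 15. That chromosome has 776 of the 21631 protein-coding genes and held 13.3% of the list. The parts of gene length and of its density of regions in these counts were not tested. Csmd3, a gene of 1210 kb for a large membrane protein of neurons, had 30. Ctnnd2, which encodes delta-catenin, had 29, Oxr1, an oxidation resistance gene, 25, Myo10, an unconventional myosin gene, 23 and Trio, a guanine nucleotide exchange factor gene, 21. On other chromosomes Stard13 had 23, Rps6ka2 21, Dlgap1 20, Arid1b, a subunit gene of the BAF remodeller, 19 and the phosphodiesterase gene Pde4d 18. Per length the order was different: Myo10 had 12 and Rps6ka2 9.80 regions per 100 kb, while Csmd3 had 2.48 and Pde4d 1.38. The 0.5 and 0.1 µM lists had 24 and 4 regions in Rps6ka2, 24 and 9 in Arid1b, and 19 and 38 in Csmd3.

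Among regions narrower than 1000 bp, the best-ranked at a start belonged to Kyat3 (chr3:142700399-142701337, percentile 99.9), which encodes a kynurenine aminotransferase. Next came Gna12, a G protein alpha subunit gene (chr5:140830075-140830971, 99.8), and the shared start of Ormdl2, a regulator of sphingolipid synthesis, and Sarnp, an mRNA export factor gene (chr10:128821224-128822141, 99.8). Flrt3, Gm51425, the zinc finger gene Zfp386, Desi2 and Aktip also stood at 99.8, and Zfp960 and Cenpf, a kinetochore protein gene, at 99.7. Hmgb2, which encodes an abundant DNA-bending chromatin protein, and the shared start of Tmem167 and Xrcc4, the partner of DNA ligase IV in end joining, stood at 99.6. In both other lists 9 of these 12 stood at percentiles of at least 98.4. The exceptions were Kyat3 (100 at 0.5 µM, 30.7 at 0.1 µM), Flrt3 (42.9 and 92.3) and Aktip (99.6 and 44.8). In the low cases of these 3 the region in the other list was 1097 to 1410 bp wide.

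The best-ranked narrow regions inside genes lay in Retreg1, a receptor gene for autophagy of the endoplasmic reticulum (chr15:25914994-25915973, 99.9), and in Pigk (chr3:152813697-152814594, 99.9). Aida (chr1:183299076-183299668) and a region in Oxr1 (chr15:41727182-41728160) stood at 99.8, and Camk2d (chr3:126831360-126832048) and a second Oxr1 region (chr15:41611896-41612712) at 99.7. Between genes the best-ranked lay 57.8 kb from Rgs2 (chr1:143941174-143941972, 99.9) and 9.16 kb from Gm14391 (chr2:175175601-175176418, 99.9). Regions 60.9 kb from Cdh6 (chr15:13236813-13237736, 99.8), 5.46 kb from Lrrc6 (chr15:66373982-66374807, 99.7), 3.06 kb from 2310061N02Rik (chr16:88710622-88711418, 99.6) and 548 kb from Kcnv1 (chr15:45663234-45664184, 99.6) followed. Of these 12 regions away from starts, 6 lay on chromosome 15, which held 13.3% of the whole list.

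Few markers of hepatocytes, the cell type this hepatoma line comes from, had a region at their start. Of 10 defining markers, among them Alb, Afp, Ttr, Apoa1, Apoa2, Apob, Hnf4a, Foxa2 and Cebpa, 1 had a 1 µM region at its start, the pioneer factor gene Foxa2, which had 4 (best percentile 75.6). Of 32 genes of hepatocyte plasma proteins and enzymes 3 (9.38%) had one, C3, Rbp4 and Fah (31.6, region of 1456 bp), beside 23.3% of all genes. Their promoters had a median of 4 CpGs, against 15 over all genes. Of 21 hepatocyte transcription factor genes 6 (28.6%; 23 CpGs) had one, among them Cebpb with 4 regions (best percentile 57.4), Foxa1 (23.8), Nr5a2 (31.6), Tbx3 and Onecut2.

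Most groups of markers of other cell types also had few regions at starts, beside 23.3% of all genes. None of 22 immune and none of 20 neuronal or glial marker genes had a 1 µM region, and none of 39 Hox genes did. Their promoters had medians of 4, 13 and 17.5 CpGs in that order, against 15 over all genes. Of 22 markers of stellate cells, fibroblasts and endothelium 2 (9.09%; 7 CpGs) had a region, Dcn (percentile 70.0) and Vim (0.698). Of 14 markers of cholangiocytes and other epithelium 3 (21.4%; 8 CpGs) had one, close to the share of all genes. They were Sox9 with 3 regions (best 89.4), Lgr5 (39.1) and Krt7 (31.6).

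Genes of chromate uptake, reduction and glutathione had a 1 µM region at the start in 12 of 23 cases (52.2%), beside 23.3% of all genes, with a median percentile of 68.5 and a median of 16 CpGs. The 0.5 and 0.1 µM lists held 12 and 7 of them. Slc26a2, a sulfate transporter gene, had a region at percentile 6.05, and Slc20a1, a phosphate transporter gene, one at 83.4. Glrx, which encodes glutaredoxin, stood highest at 96.5, followed by the glutathione transferase gene Mgst1 (93.2, region of 1051 bp). Slc7a11, the cystine importer that feeds glutathione synthesis, had 2 regions (best 86.4). Gstm1, another glutathione transferase gene, stood at 79.2, Txnrd1 at 74.1 and Gclm at 47.4. Gclc, the catalytic partner of Gclm, Gsr, which recycles glutathione, and the ascorbate transporter gene Slc23a2 had no region in any of the lists.

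NRF2 and antioxidant genes had a region in 15 of 26 cases (57.7%), with 12 at 0.5 µM and 10 at 0.1 µM. Their median percentile of 47.4 was under the 60.3 of all genes with a region, and their promoters had a median of 21.5 CpGs. Cul3, which encodes the ubiquitin ligase scaffold that turns NRF2 over, stood at 98.6 (99.1 at 0.5 µM, 80.1 at 0.1 µM), and Bach1, a repressor at the same elements, at 91.2. The superoxide dismutase gene Sod1 stood at 89.4 in a region of 1050 bp, and Hmox1, which encodes haem oxygenase, at 86.4 with a region of 398 bp (chr8:75093425-75093822). Nfe2l2 itself stood at 81.4, the peroxiredoxin gene Prdx3 at 67.1 and Nqo1, a quinone reductase gene, at 54.4. Srxn1, which repairs peroxiredoxins, had a region at 47.4 and none in the other lists, and Keap1, the adaptor that holds NRF2, had none in any list.

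Metal binding and transport genes had a region in 13 of 22 cases (59.1%), with 12 and 13 in the 0.5 and 0.1 µM lists, a median percentile of 74.1 and a median of 24 CpGs. The iron regulator gene Aco1 (91.2), the copper pump gene Atp7b (90.8), the iron exporter gene Slc40a1 (85.8) and the zinc exporter gene Slc30a1 (84.2) stood highest. Mt1 stood at 79.2, with 70.3 and 89.4 at 0.5 and 0.1 µM, the ferritin gene Fth1 also at 79.2, and the zinc carrier gene Slc30a5 at 74.1. Mtf1, which encodes the metal-sensing factor, stood at 62.8, and Atp7a, the other copper pump gene, at 57.4. Mt2, the neighbour of Mt1, had no region in any list.

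Heat shock and chaperone genes had a region in 14 of 22 cases (63.6%), with 13 and 11 at 0.5 and 0.1 µM, a median percentile of 47.3 and a median of 25 CpGs. Cct5, a subunit gene of the cytosolic chaperonin, stood at 98.5 in a region of 2101 bp, and Dnajb4 at 98.0 in one of 1322 bp. The heat shock factor gene Hsf2 stood at 93.9, Dnajb1, which encodes an HSP40, at 91.6, Dnaja1 and the chaperonin gene Tcp1 at 74.1, and Hsf1 at 51.1. Hsp90aa1 stood at 23.8, Hspa8 at 18.4, and Hsph1 at 18.4 in a region of 1441 bp that stood at 98.4 in the 0.5 µM list. The inducible HSP70 genes Hspa1a and Hspa1b, had none, which is uncertain because they are near-identical copies.

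Unfolded protein response genes had a region in 13 of 24 cases (54.2%), with 12 and 10 at 0.5 and 0.1 µM, a median percentile of 62.8 and 24 CpGs. Edem1 (99.3, in a region of 1210 bp) and Sel1l (99.0) act in the removal of misfolded proteins, and Dnajc3 (96.3) restrains the kinase PERK. The lectin chaperone gene Canx stood at 87.7, Creld2 at 83.4 and Pdia4 at 74.1. Ddit3, which encodes CHOP, stood at 62.8. Of its transcription factor genes Atf6 had a region at 43.4 (49.3 at 0.5 µM, none at 0.1 µM), while Atf4 and Xbp1 had none in any list, as was the case for Hspa5, which encodes the lumenal HSP70.

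DNA repair genes had a region in 25 of 45 cases (55.6%), with 22 and 19 at 0.5 and 0.1 µM, a median percentile of 57.4 and 23 CpGs. Fancb, of the Fanconi core complex, stood at 99.3 in a region of 1037 bp, Mgmt, which removes alkyl groups from guanine, at 98.8, and the nucleotide excision nuclease gene Ercc5 at 92.0. In mismatch repair Msh3 stood at 86.4 in a region of 1286 bp, Pms2 at 85.0 and Msh6 at 78.1. Ogg1, the glycosylase gene for oxidised guanine, stood at 90.8. Brca2 had a region of 1097 bp at 31.6, and Brca1 had none at 1 µM and one at 0.5 µM (91.0). Xpa, Fancd2 and Atr had none in any list.

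Genes of the p53 pathway had a region in 14 of 26 cases (53.8%), with 11 and 12 at 0.5 and 0.1 µM, 22.5 CpGs and a median percentile of 78.6, above the 60.3 of all genes. Ccng1, a cyclin gene induced by p53, stood at 98.8 (chr11:40755021-40755595), Rrm2b, the p53-induced ribonucleotide reductase subunit, at 96.7 in a region of 1353 bp and Mdm4, an inhibitor of p53, at 95.2. Gadd45a, a stress sensor gene, stood at 93.7, the death receptor gene Fas at 90.3, the nuclease gene Aen at 89.9 and Mdm2 at 80.3 with 2 regions. Trp53, the cell cycle inhibitor gene Cdkn1a and the death effector gene Bax had no region in any list.

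**Figure D4:**
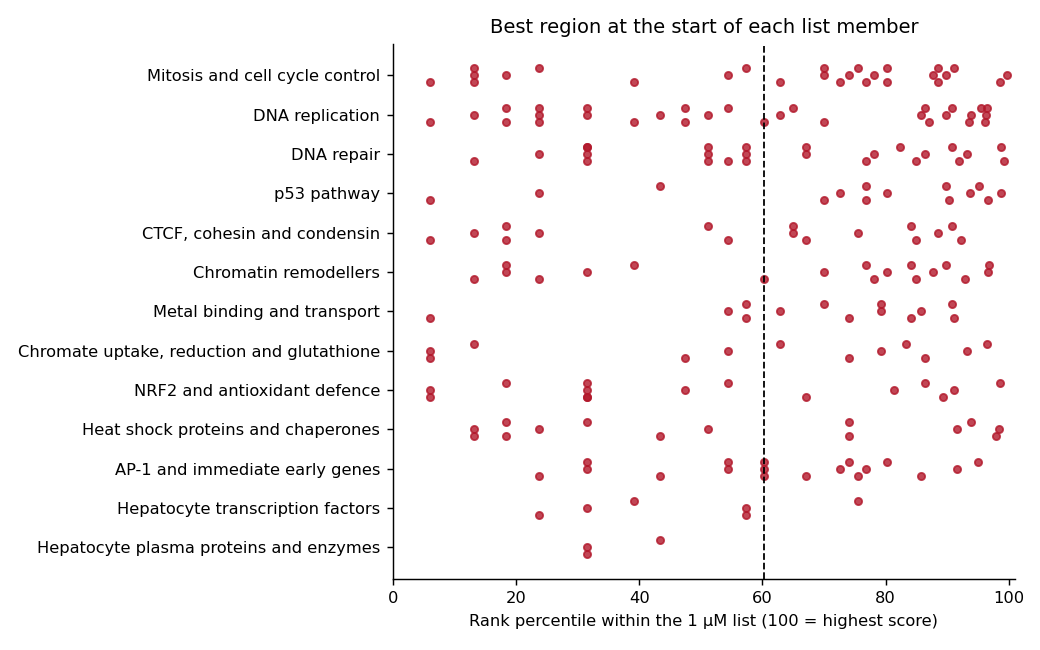
Rank percentile (x axis, 100 is the highest score of the 1 µM list) of the best region at the start of each member of 13 gene groups (y axis); each point is a gene with a region, and the dashed line is the median over all genes with one, 60.3. Points of the p53 and metal groups lie mostly to the right of it, with medians of 78.6 and 74.1, and the 3 points of plasma proteins lie to the left.

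Cell division genes had the highest shares by the 1 kb rule. Other groups stood above one or both division groups in other settings: the heat shock group (63.6%) above mitosis (57.5%) with a window of 500 bp, the metal group (54.5%) above mitosis (47.5%) and replication (36.2%) in the stronger 50% of regions, and the chromate group (73.3%) above mitosis (72.4%) and replication (61.5%) with promoter-table starts alone. Mitosis and cell cycle genes had a region in 26 of 40 cases (65.0%), with 21 and 24 at 0.5 and 0.1 µM, a median percentile of 73.4 and 25 CpGs. Cenpf stood at 99.7 (chr1:189687877-189688567), the spindle checkpoint genes Mad2l1 at 98.6 and Bub3 at 89.9, the kinetochore gene Ndc80 at 91.2, and the motor gene Cenpe at 88.6 in a region of 1697 bp. Tpx2, a spindle assembly gene, also stood at 88.6. Cdc20, the activator of the anaphase-promoting complex, stood at 87.7, Ccne1 at 70.0 and Ccnb1 at 57.4. Ccnd1 has no promoter entry, so both of its ends were searched. It had no region at 1 µM but one at 0.1 µM (percentile 15), at its end of lower coordinate, which may not be the start.

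DNA replication genes had a region in 30 of 47 cases (63.8%), with 22 and 21 at 0.5 and 0.1 µM, a median percentile of 57.3 and 23 CpGs. Of the replicative helicase, Mcm3 stood at 96.5, Mcm5 at 95.5 and Mcm6 at 47.4 in a region of 1167 bp, and Mcm2 had none. Rpa3, of the single-strand binding complex, stood at 96.3, the clamp loader gene Rfc3 at 96.2, the topoisomerase gene Top1 at 93.9, the helicase cofactor gene Gins1 at 93.5 and the ligase gene Lig1 at 90.8. Pcna, the sliding clamp gene, had none in any list.

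Among CTCF, cohesin and condensin genes 16 of 30 (53.3%) had a region, with 13 and 14 at 0.5 and 0.1 µM, a median percentile of 65.0 and 29 CpGs. Ctcf itself had none in any list, and neither did the cohesin genes Rad21 and Stag2, the loader gene Nipbl or the release factor gene Pds5a. Pds5b stood at 92.3, with 92.7 and 92.8 at 0.5 and 0.1 µM. Of cohesin, Smc3 stood at 65.0, Stag1 at 51.1 and Smc1a at 23.8. Of condensin, Ncapd3 stood at 90.8, Ncapg2 at 88.6, Ncapg at 84.2, Smc2 at 67.1 and Smc4 at 54.4. The looping factor genes Zfp143 and Yy1 stood at 85.0 and 65.0.

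Chromatin remodeller genes had a region in 18 of 36 cases, with 18 and 15 at 0.5 and 0.1 µM, a median percentile of 77.5 and 31 CpGs. Chd6 stood at 96.8, Smarca2, an ATPase of the BAF complex, at 96.7, Actl6a at 92.9, Chd1 at 89.9, Chd9 at 87.7, Smarca5 at 85.0 and Arid1b, with 3 regions, at 76.9. Smarca4, the other BAF ATPase gene, had none at 1 µM but one at 0.1 µM (6.47), and Smarcb1 and Arid1a had none in any list.

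Histone and DNA modifying enzymes did not share this pattern, with 10 of 43 (23.3%), a share equal to that of all genes, although their promoters had a median of 31 CpGs. The deacetylase gene Hdac2 stood at 96.8 in a region of 1036 bp, the demethylase gene Kdm4a at 93.2, Kat2b at 87.7, Ezh2, the methyltransferase gene of Polycomb, at 82.4, the demethylase gene Kdm6a at 74.1 and Tet2 at 47.4. Hdac1, Hdac3, Ep300, Ehmt2 and the maintenance DNA methyltransferase gene Dnmt1 had none in any list. The 0.5 and 0.1 µM lists held 9 and 11 members of this group.

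AP-1 and immediate early genes had a region in 18 of 32 cases (56.2%), with 16 in each of the other lists, a median percentile of 63.7 and 25 CpGs. Ier5 stood at 95, the stress factor gene Atf3 at 91.6 with 2 regions, Btg1 at 85.8, the orphan receptor gene Nr4a1 at 80.3, Klf6 at 76.9, Egr2 at 75.6 and Nr4a2 at 74.1. Egr1 had 4 regions, the best at 60.3, Jun stood at 43.4 and Myc at 23.8. Fos had none at 1 µM but one at 0.1 µM (22.8), and Fosl1 and Fosl2 had none in any list.

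Genes of the AHR, the receptor for dioxins that this line is often used to study, and of xenobiotic enzymes had few regions at starts, 3 of 25 (12%), with 5 and 1 at 0.5 and 0.1 µM. Their promoters had a median of 4 CpGs. Arnt, the partner of AHR, stood at 80.3 and Cyp1b1 at 79.2, and the transporter gene Abcg2 had 2 regions, the best at 6.05. Ahr, its repressor gene Ahrr and the target genes Cyp1a1 and Cyp1a2 had none in any list.

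Genes of metabolism were mixed. Cholesterol and fatty acid synthesis genes had a region in 14 of 27 cases (51.9%; 27 CpGs, median percentile 66.1). Hmgcs1, of the mevalonate pathway, stood at 99.9 in a region of 1139 bp with 99.7 in both other lists, Idi1 at 84.2 and Elovl6 at 79.2. Srebf2 stood at 70.0 and Fasn at 43.4, while Srebf1 had none in any list. Glycolysis, gluconeogenesis and hypoxia genes had one in 14 of 30 cases (46.7%; 22.5 CpGs), with 8 and 11 in the other lists. The phosphoglycerate kinase gene Pgk1 stood at 97.6, Hk2 at 62.8, the glucose transporter gene Slc2a1 at 60.3 and Hif1a at 6.05, and Vegfa had none.

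Respiratory chain genes had a region in 14 of 39 cases (35.9%; 22 CpGs), led by the ETS factor gene Gabpa (98.3, region of 1371 bp), Uqcrc2 (92.6), Uqcrb (91.2) and Ndufa4 (88.6). Circadian clock genes had one in 9 of 22 cases (40.9%; 30 CpGs). Nr1d2 stood at 94.7, Arntl, which encodes BMAL1, at 91.2, Cry1 at 54.4 and Per2 at 43.4. Clock and Per1 had none at 1 µM but one at 0.5 µM (13.8 and 42.9), and Cry2 had none.

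Housekeeping groups of RNA and protein turnover had shares between those of all genes and those of the division genes. Cytosolic ribosomal protein genes had a region in 12 of 36 cases (33.3%; 21 CpGs), with the highest ranks for Rpl37 (percentile 100, region of 1634 bp), Rpl30 (96.3, 1885 bp) and Rpl34 (94.1). Spliceosome genes had one in 18 of 39 cases (46.2%; 28 CpGs), among them Nudt21 (92.0), Srsf6 (90.3, 1008 bp), Snrpa (88.6) and Srsf2 (74.1), while Sf3b1 had none. Proteasome and ubiquitin genes had one in 15 of 35 cases (42.9%; 22 CpGs). Ube2d3, a ubiquitin-conjugating enzyme gene, stood at 96.1 in a region of 1142 bp, and Ubb had none at 1 µM but one at 0.5 µM (7.66). Autophagy and lysosome genes had one in 18 of 32 cases (56.2%; 22 CpGs), among them Gabarapl1 (97.5), Ctsl (91.6) and Mitf (90.3), and the lysosomal regulator gene Tfeb stood at 6.05.

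Signalling genes of TGF-beta, Wnt and Notch had a region in 19 of 33 cases (57.6%; 24 CpGs, median percentile 62.8). Lgr4, a receptor gene that raises Wnt signalling, stood at 98.8 in a region of 1094 bp, the inhibitor of differentiation genes Id2 at 95.5 and Id1 at 92.0, Gsk3b, of the kinase that marks beta-catenin, at 92.0 in a region of 1070 bp, and Smad7 and Axin2, feedback inhibitor genes of the TGF-beta and Wnt pathways, at 57.4 and 18.4. Smad3, Ctnnb1 and Axin1 had none in any list. NF-kB and inflammation genes had one in 9 of 30 cases (30.0%; 19 CpGs, median percentile 47.4), led by Map3k7 (79.2) and Stat3 (65.0). Tnfaip3, an inhibitor gene of NF-kB, stood at 13.2, and Nfkb1, Rela and Nfkbia had none in any list.

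**Figure D5:**
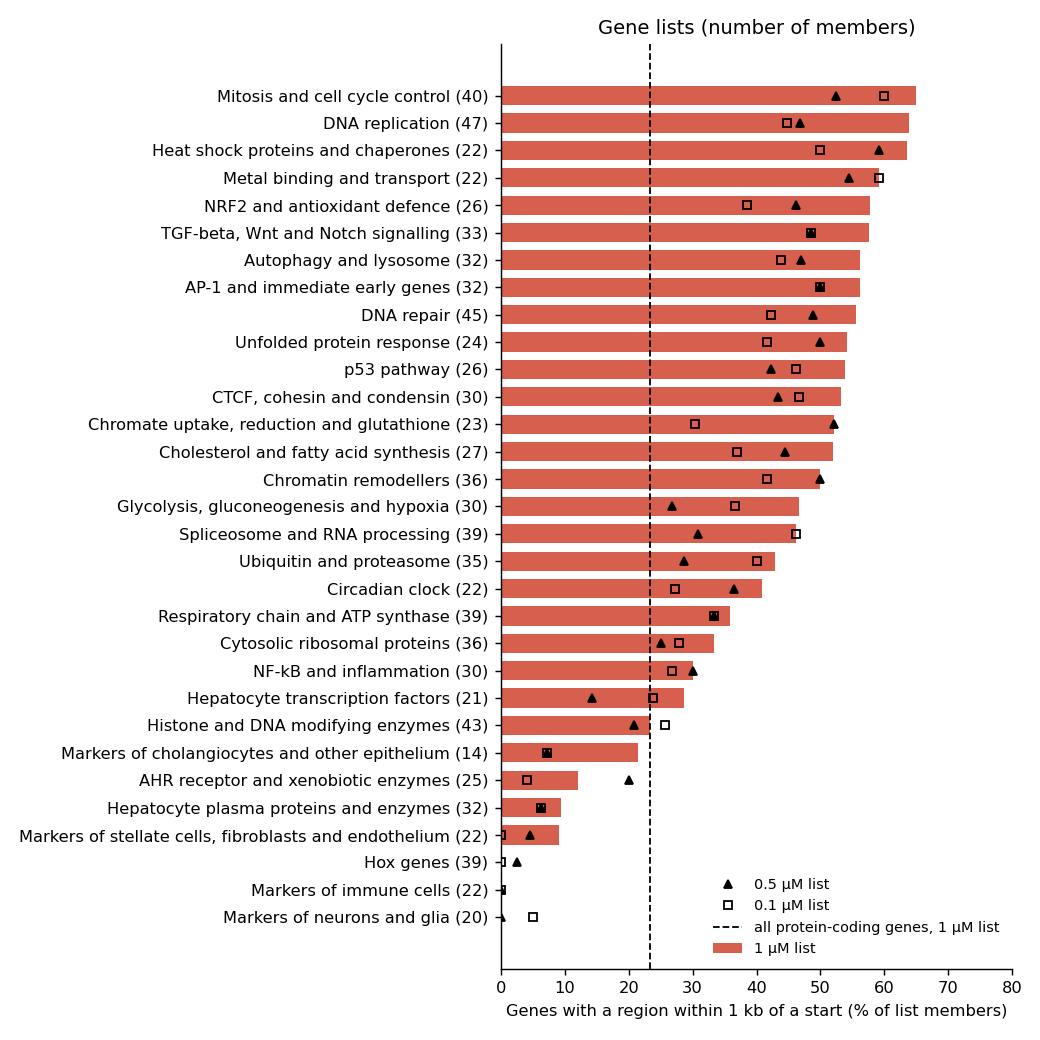
Share of the members of 31 gene groups (y axis, number of members in parentheses) with a region within 1 kb of a start (x axis, percent), as bars for the 1 µM list, triangles for 0.5 µM and squares for 0.1 µM; the dashed line is the share of all protein-coding genes at 1 µM, 23.3%. Groups of division, stress and repair genes reach 50 to 65%. So do those of TGF-beta, Wnt and Notch signalling, autophagy, cholesterol synthesis, CTCF and cohesin, and remodellers. Plasma protein, AHR, Hox and cell type marker groups lie under the line.

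Over all 31 groups, 23 had a share above that of all genes. The groups were chosen for what is known of their function and mix genes that are active and silent in this line, and expression was not measured here. With a single list per dose none of these shares can be set against a spread between cultures.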

How the data were processed

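The files analysed are 3 lists of regions from ATAC-seq of Hepa-1c1c7 cells, 1 for each treated dose, each assigned to both libraries of its dose. Each list gives positions and a deposited score per region, a whole number whose scale the authors do not state, which was used only to rank regions within a list. Per the submitters' processing notes, the tools were Bowtie2, Picard and MACS2 and the build mm10, with no version or role. The name of each list pairs the dose with the control. It also carries a q label and the terms filtered, BL and unique, which no source used here explains. Beyond these names, no source used here gives the threshold, the use of the control, the treatment of duplicates or any shift of reads for Tn5. The depth of each library is unknown, since the lists hold no counts. Their numbering reaches 16263 in the 1 µM list, with 369 numbers missing, so some regions had been removed.

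Region midpoints were compared with RefSeq genes and promoters of GRCm38.p6 (250 bases before to 50 after each start) in Python 3.11.15 with pandas 2.3.3 and numpy 2.4.6. A region belonged to a start when its midpoint lay within 1 kb. Promoter entries covered 17274 of 21631 protein-coding genes, and for the other genes both ends were used. A promoter had a region with an overlap of at least 1 bp. Wilson intervals (95%) were computed with scipy 1.17.1. The functions that place regions in windows, genes and stretches and find motifs were tried on made-up input with known answers. No test between doses was made, because each dose has 1 list. All 934 members of the 31 gene groups matched a RefSeq symbol or synonym.

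The text names the 12 best-ranked regions narrower than 1000 bp at starts, 6 inside and 6 between genes, the 10 dense stretches with most regions, the 10 genes with most regions inside, genes marked in the group lists whatever their value, and up to 5 further best-ranked members of a group. Other named genes (members of the same complex or pathway, shared or wide regions, marker genes) were chosen after their values were seen. The members, groups and choices were made with earlier results of these data known. Some members of the groups are counted and not reported here by name.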

Additional observations from a re-analysis of the deposited data

How the results depend on the processing

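Leaving out each library was not possible, because each dose has 1 list. No paired analysis was possible because the lists carry no replicate numbers. The share of 1 µM regions at starts (31.7%) was 28.4% with a window of 500 bp, 36.0% with 2500 bp and 32.5% when any overlap of 1 bp with the window counted. It was 35.7% in the stronger 50% by score, 40.2% in the wider 50% and 34.6% without chromosome 15. The number of genes with a region at a start (5031) was 3065 with the stronger 50% of regions, and lay within 1.5 times of the main number under the other alternatives. The ratio of density on chromosome 15 to that on all other chromosomes (3.74) was 3.19 in the stronger 50%. The number of dense stretches (154) was 58 with gaps of at most 5 kb and 315 with gaps of at most 20 kb. The upstream share and the share of promoters with a CTCF match stayed within their counting intervals.

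Between 22 and 24 of the 31 gene groups had a share above that of all genes in 8 settings, 1 of them (only genes with a start in the promoter table) chosen after the data were seen. In all 8 settings 21 groups lay above it and 7 below it. Some of those below came close to it when the gene body and 10 kb either side were searched: beside 36.7% of all genes, AHR genes had 36.0% (9 against 3 members with the 1 kb rule), stellate, fibroblast and endothelial markers 36.4% (8 against 2), cholangiocyte markers 35.7% (5 against 3), neuronal markers 35.0% (7 against 0), plasma proteins 31.2% (10 against 3) and immune markers 22.7% (5 against 0), while Hox genes had 0. The groups of ribosomal proteins, of histone and DNA modifying enzymes and of NF-kB changed side in at least 1 setting, and the cause was not tested. Unknown depth limits every absence from the list.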

Other observations

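Of 1005 microRNA hairpins in RefSeq, 13 were overlapped by a 1 µM region. Several of these regions lay at starts of protein-coding genes. No background share was computed, so the count is not read as high or low. Of these 13, the regions with the highest ranks were at Mir7648 (chr15:90224360-90224412, percentile 97.2), beside the start of Alg10b, and at Mir8114 (chr1:153899926-153900036, percentile 97.1), at the start of Glul, which encodes glutamine synthetase. Mir206, known from muscle, lay between genes under a region of 247 bp at percentile 6.05. A stretch of 9 regions in 6.14 kb at chr1:88216107-88222246 touched the Ugt1a genes, which encode glucuronosyltransferases, and was picked after its values were seen. The other lists had 5 regions there at 0.5 µM and 1 at 0.1 µM.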
